A study of Rattus norvegicus with 10 samples.

Results

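Heart muscle cells relax by clearing calcium from the cytosol. The RNA levels of 8 genes that serve this clearance were followed in cultured rat cardiomyocytes with and without electric pacing. The genes are Atp2a2, Pln, Sln, Slc8a1, Atp2b1, Atp2b4, S100a1 and Camk2d. They were chosen by name, and all probe sets annotated to them with a single symbol were taken, which gave 19 probe sets for 8 of the 14217 gene symbols on the array. Of these, 18 passed a filter on dim signals and were tested, and 1 probe set of Atp2a2 did not.

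The cells were primary cultures of ventricular cardiomyocytes from newborn Lewis rats aged 0 to 3 days, measured on Affymetrix arrays. Nonpulsed cultures (n = 3 arrays) received no electric stimulation. Pulsed cultures (n = 4) were stimulated for 3 days at 1 Hz and 2 V/cm. Pulsed cultures with blebbistatin (n = 3) had the same stimulation and 10 µmol/L of this inhibitor of myosin II, which blocks contraction while electric activity goes on. RNA of duplicate experiments was pooled 1:1 for each array, and the arrays belong to 4 culture series by the date in their titles. Series 1 lacked blebbistatin, series 4 lacked nonpulsed cells, and series 2 and 3 covered all 3 groups. Blebbistatin was never given without pulses, so an effect of the drug and one of blocked contraction cannot be told apart, and blebbistatin against nonpulsed cultures differs in drug and pulses at once. The 3 comparisons share arrays.

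In each heartbeat calcium enters through L-type channels and releases more calcium from the sarcoplasmic reticulum. Relaxation follows when the SERCA pump returns calcium to that store and the sodium-calcium exchanger expels the rest across the cell membrane. Phospholamban and sarcolipin are small membrane proteins that hold the SERCA pump back, and phosphorylation of phospholamban lifts its hold. In rodent ventricle the pump carries most of the calcium and the plasma membrane calcium pumps little.

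Median log2 values of the 10 arrays lay between 6.57 and 6.78, and the lowest level an array can give lay between 10.0 and 10.97 on the linear scale. Defining cardiomyocyte genes were present on every array, and 9 of the 10 listed markers could be measured, with none at the lowest level. Genes listed as markers of other cells were present too, with 10 of 10 fibroblast and 11 of 11 smooth muscle and pericyte genes measured. The second of these lists includes Acta2, Tagln and Des, which are not exclusive to such cells. Of the endothelial list Vwf was at the lowest level on 4 arrays, and of the macrophage and leukocyte list C1qa was there on 1 array and Cd163 on 4. The difference between the 3' and 5' control probe sets of beta-actin, a sign of RNA quality, was 0.45 to 0.68 log2 units in nonpulsed, 0.60 to 0.72 in pulsed and 0.69 to 0.77 in blebbistatin arrays. For GAPDH it was 0.06 to 0.17, 0.06 to 0.17 and 0.19 to 0.22, and its part in any result below was not tested.

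Across the 18 tested probe sets, 0 passed an adjusted p of 0.05 in any of the 3 comparisons (limma with culture series as a block, Benjamini-Hochberg adjustment over 23281 probe sets). The share of all probe sets called was 0% for pulsed against nonpulsed, 0.0129% (0.0043% higher, 0.00859% lower) for blebbistatin against pulsed and 0.472% (0.301% higher, 0.172% lower) for blebbistatin against nonpulsed cultures. At an unadjusted p under 0.05 there were 3, 1 and 4 member probe sets, or 16.7%, 5.56% and 22.2%, against 9.08%, 11.6% and 22.4% of all probe sets. Only in the first comparison was the members' share above that of all probe sets, and there it rested on a single gene, Atp2a2. The median change of the members was 0.17, 0.04 and 0.19 log2 units, and that of all probe sets 0.04, 0.02 and 0.07. The 9 measured cardiomyocyte markers had median changes of 0.28, 0.04 and 0.28, with 8, 7 and 7 of them positive.

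**Figure D1:**
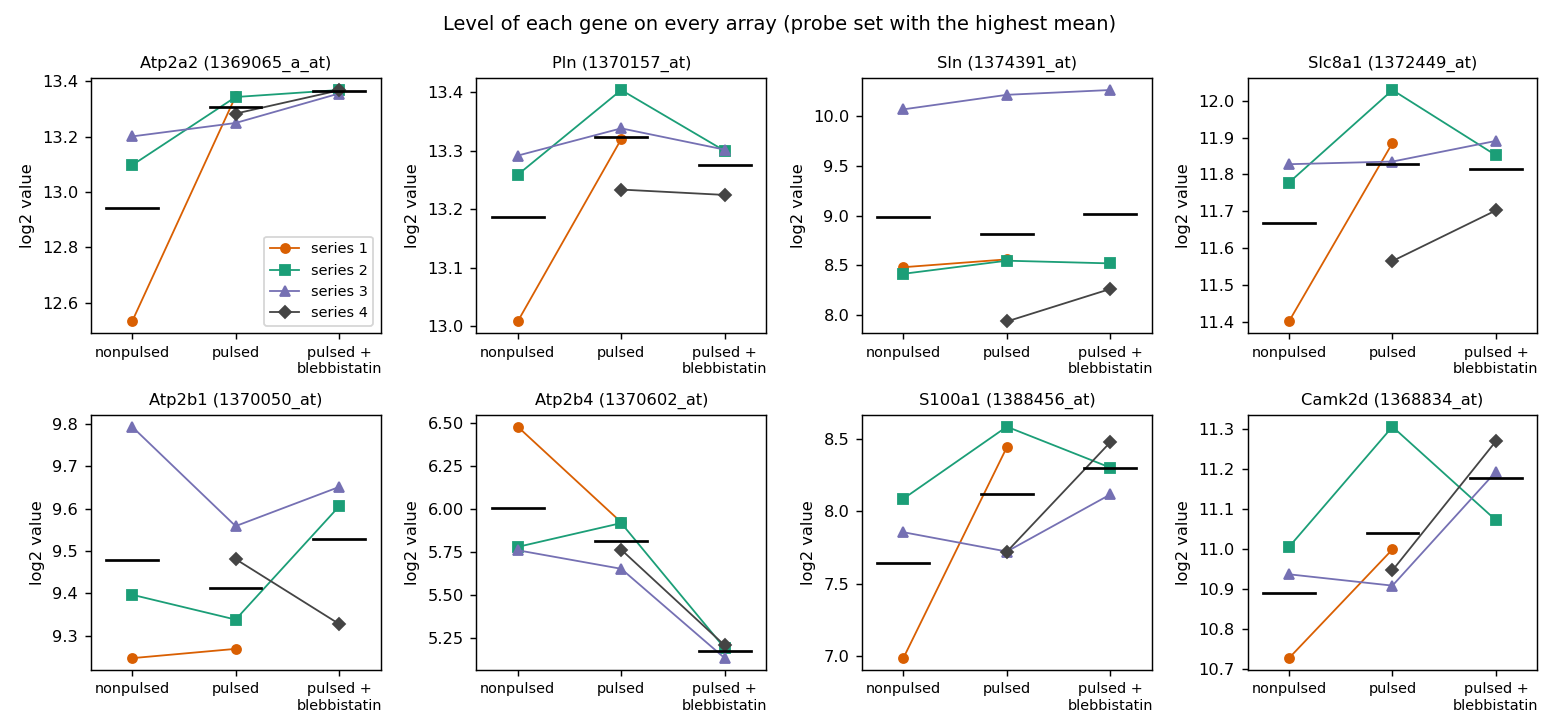
Log2 value of each of the 8 genes on every array (vertical axis, log2 units), by group (horizontal axis), at the probe set with the highest mean. Points are arrays, coloured lines join arrays of a culture series, and black bars are group means. The blebbistatin arrays of Atp2b4 (5.13 to 5.21) lie below all others, and the 3 arrays of series 3 stand above the rest for Sln (10.07 to 10.27).

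Atp2a2 encodes the SERCA pump of the heart. It was read by 5 probe sets, which can report different parts or splice forms of its RNA. At probe set 1398862_at the nonpulsed arrays had log2 values of 8.60, 8.81 and 9.26 in series 1, 2 and 3. The pulsed arrays had 9.55, 9.56, 9.65 and 9.76 in series 1 to 4, and the blebbistatin arrays 9.76, 9.85 and 10.05 in series 2, 3 and 4. Every pulsed array thus lay above every nonpulsed array, and the blebbistatin arrays lay in and above the range of the pulsed ones. The fitted log2 change was 0.68 (SE 0.12, 95% interval 0.39 to 0.97, a 1.6-fold level) for pulsed against nonpulsed cultures, and limma gave an adjusted p of 0.48. No probe set reached a smaller adjusted p in that comparison, but the value is tied with others, Stim1 among them, and by the size of its change over its SE this probe set ranked 28 of 23281. Over the alternatives its adjusted p ranged from 0.195 to 1.0.

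The difference between pulsed and nonpulsed arrays of a series was positive in 3 of 3 series at this probe set and spanned 0.39 to 0.95. Probe set 1369065_a_at showed nonpulsed values of 12.53, 13.10 and 13.20, pulsed values of 13.35, 13.34, 13.25 and 13.28, and blebbistatin values of 13.37, 13.36 and 13.37. Here the groups were again apart, but mainly through the low nonpulsed array of series 1. Its change was 0.35 (SE 0.14), and 0.14 without series 1. Probe set 1391771_at had 5.84, 6.20 and 6.26 in nonpulsed, 6.49, 6.52, 6.44 and 6.85 in pulsed, and 7.0, 6.71 and 7.02 in blebbistatin arrays, with a change of 0.40 (SE 0.12) on pulsing. These 3 probe sets of the pump gene were all the member probe sets whose pulsed and nonpulsed arrays did not overlap, which is 16.7% of 18, against 6.17% of all probe sets that were higher in this way. No member was lower without overlap, against 1.16% of all probe sets.

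Probe set 1370426_a_at of Atp2a2 differed from these on pulsing through series 1. It had 11.15, 11.04 and 11.24 in nonpulsed and 11.05, 11.25, 11.51 and 11.46 in pulsed arrays, so that the groups overlapped and series 1 went the other way (-0.10). Series 2 and 3 rose by 0.21 and 0.27. The fitted change was 0.16 (SE 0.12), and 0.28 without series 1. With blebbistatin it had 11.65, 11.71 and 11.51, and the change against pulsed cultures was 0.26 (SE 0.12, limma adjusted p 0.45). The dim probe set 1375164_at, which was not tested, stayed between 3.605 and 4.19 on all arrays. Deviations from the series means correlated at 0.20 to 0.95 between the 4 tested probe sets over the 10 arrays, so the probe sets of the gene did not report a common pattern throughout.

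Between blebbistatin and nonpulsed cultures all 4 tested probe sets of Atp2a2 were higher without overlap, as were 17.6% of all probe sets. The changes were 0.86 (SE 0.14, 1.82-fold) at 1398862_at, 0.67 (SE 0.13) at 1391771_at, 0.42 (SE 0.13) at 1370426_a_at and 0.35 (SE 0.16) at 1369065_a_at, with limma adjusted p-values of 0.058, 0.076, 0.14 and 0.25. In series 2 and 3, which held both groups, the difference at 1398862_at was 0.95 and 0.58. At 1369065_a_at it was 0.27 and 0.15, below the fitted 0.35. With culture series as a random block the first 2 of these passed (adjusted p 0.015 and 0.024), and with a trended prior the first did (adjusted p 0.039). Over the alternatives its adjusted p ranged from 0.015 to 0.32. Against pulsed cultures the same 4 probe sets had changes of 0.18, 0.27, 0.26 and -0.0045, and the last was positive (0.072) with quantile normalization. Their differences were positive in 3 of 3 series at each of the 4 probe sets, the fourth with a span of 0.03 to 0.11. At that probe set the blebbistatin arrays also lay above all pulsed arrays without overlap, the only member to do so (5.56% of 18, against 6.18% of all probe sets).

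**Figure D2:**
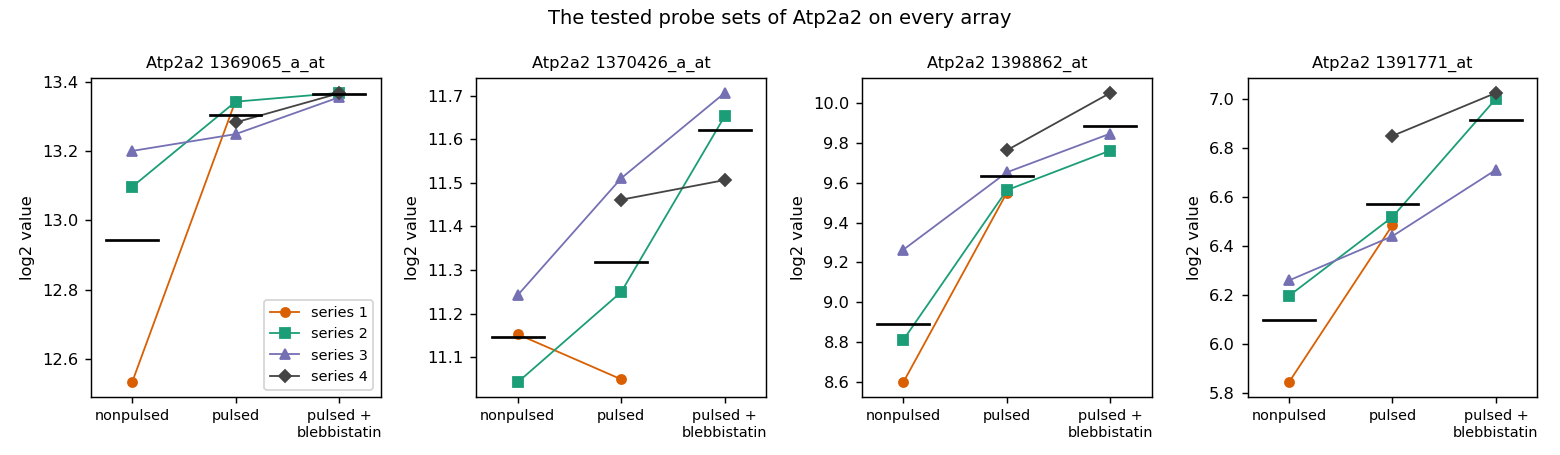
Log2 values of the 4 tested probe sets of the pump gene Atp2a2 on every array (vertical axis, log2 units), by group (horizontal axis). Points are arrays, lines join a culture series and black bars are group means. All blebbistatin arrays lie above all nonpulsed arrays at each probe set, and 1370426_a_at alone has overlapping nonpulsed and pulsed arrays.

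The nonpulsed array of series 1 was also the lowest of the 10 arrays in the summed level of the 9 cardiomyocyte markers. That sum was 15.77 to 16.19 log2 units in nonpulsed, 16.05 to 16.33 in pulsed and 16.16 to 16.22 in blebbistatin arrays. Fewer cells of a type and less RNA per cell cannot be told apart in such cultures, and the part of this shift in the values of Atp2a2 was not tested. Without series 1 the change of 1398862_at on pulsing was 0.55, and that of 1391771_at was 0.28. The number of member probe sets at an unadjusted p under 0.05 was then 1 in place of 3, while for all probe sets the share was 4.74%.

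Pln encodes phospholamban. Its brightest probe set, 1370157_at, read 13.01, 13.26 and 13.29 in nonpulsed, 13.32, 13.40, 13.34 and 13.23 in pulsed and 13.30, 13.30 and 13.22 in blebbistatin arrays. Apart from the nonpulsed array of series 1, all arrays lay within a narrow band, and the groups overlapped. The change was 0.16 (SE 0.09) on pulsing, -0.08 (SE 0.09) for blebbistatin against pulsed, and 0.08 (SE 0.10) for blebbistatin against nonpulsed cultures, where median centring gave -0.0024. The 95% interval of the first was -0.06 to 0.37. From pulsed to blebbistatin arrays the differences within series spanned -0.10 to -0.01, with 0 of 3 positive.

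Probe set 1388876_at of Pln had 12.37, 12.77 and 12.64 in nonpulsed, 12.87, 13.01, 12.76 and 12.68 in pulsed, and 12.55, 12.63 and 12.78 in blebbistatin arrays. It was higher on pulsing in 3 of 3 series, with a change of 0.24 (SE 0.13), and was -0.21 (SE 0.13) with blebbistatin against pulsing alone. The third probe set, 1384689_at, varied most, from 8.63 in the nonpulsed array of series 1 to 9.64 in the blebbistatin array of series 4. Its differences on pulsing were 0.86, 0.18 and -0.35 in series 1, 2 and 3. The smallest limma adjusted p of the 3 probe sets over the 3 comparisons was 0.53.

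The balance of pump to phospholamban RNA was followed as the difference between the 2 brightest probe sets within an array. As probes differ in brightness, only shifts of this difference between arrays have a meaning. It was -0.47, -0.16 and -0.09 log2 units in nonpulsed, 0.03, -0.06, -0.09 and 0.05 in pulsed, and 0.07, 0.05 and 0.14 in blebbistatin arrays. At these probe sets all blebbistatin arrays lay above all others, and series 1 had the widest step on pulsing (0.50, against 0.10 and 0.0019 in series 2 and 3). The mean step within series was 0.20 ± 0.26 (SD, n = 3) on pulsing and 0.12 ± 0.03 (SD, n = 3) from pulsed to blebbistatin, each positive in 3 of 3 series. The exact two-sided sign-flip permutation test gave p = 0.25 for both, the smallest that 3 series allow. From nonpulsed to blebbistatin the step was 0.19 ± 0.06 (SD, n = 2), where the smallest exact permutation p is 0.5. With the mean of all tested probe sets the steps were 0.16, 0.20 and 0.56, and the second was positive in 2 of 3 series. Both orders then differed, as the pulsed array of series 4 (-1.36) lay above the blebbistatin arrays of series 3 and 4 (-1.37 and -1.40), and series 1 had the narrowest step on pulsing (0.02). Both brightest probe sets sat at the 99.9th percentile of all signals, where differences may be compressed, which was not tested.

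Sequences upstream of the start site are shown for the pump, its regulator and the plasma membrane pump gene Atp2b4, since against nonpulsed cultures the blebbistatin arrays were higher for Atp2a2 and lower for Atp2b4 without overlap. They hold the 250 bases before the start site in RefSeq's rat genome build GRCr8, where 6 of the 8 genes had an entry. Capitals mark the GC box (GGGCGG) and the CCAAT box (CCAAT) on either strand.
Atp2a2, chr12:39733269-39733518, plus strand: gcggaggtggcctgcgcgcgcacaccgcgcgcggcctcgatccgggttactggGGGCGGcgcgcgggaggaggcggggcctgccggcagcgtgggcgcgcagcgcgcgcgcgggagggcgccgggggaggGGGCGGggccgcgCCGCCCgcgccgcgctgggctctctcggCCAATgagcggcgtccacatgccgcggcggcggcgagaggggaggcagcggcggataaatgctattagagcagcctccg
Pln, chr20:33172244-33172493, plus strand: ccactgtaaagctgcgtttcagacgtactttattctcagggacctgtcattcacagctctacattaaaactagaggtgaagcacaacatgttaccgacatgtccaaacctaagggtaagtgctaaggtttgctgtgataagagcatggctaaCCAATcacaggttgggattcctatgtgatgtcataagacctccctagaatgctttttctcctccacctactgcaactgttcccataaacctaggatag
Atp2b4, chr13:47758877-47759126, minus strand: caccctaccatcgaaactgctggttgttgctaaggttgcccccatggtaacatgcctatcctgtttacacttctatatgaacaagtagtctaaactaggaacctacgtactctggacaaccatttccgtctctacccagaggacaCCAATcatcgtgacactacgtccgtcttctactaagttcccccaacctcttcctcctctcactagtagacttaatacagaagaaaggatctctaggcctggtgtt

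The Atp2a2 stretch holds 3 GC boxes, starting at positions -197, -120 and -107 from the start site, and a CCAAT box at -79. The Pln and Atp2b4 stretches hold no GC box and a CCAAT box each, at -98 and -105. Their base composition differs in the same way, with 80.0% G and C for Atp2a2, 44.0% for Pln and 46.4% for Atp2b4. Among the other members Atp2b1 and Camk2d also had 3 GC boxes (72.8% and 75.2% G and C), and Slc8a1 had none (35.2%). Of 33469 stretches of this length, 30.5% held a GC box, 34.0% a CCAAT box and 65.5% an E-box (CANNTG), which occurred once in Atp2a2, Pln and Slc8a1. TATAAA, the M-CAT motif CATTCC and the GATA motif AGATAA, held by 12.9%, 12.1% and 10.3%, did not occur in the 6 stretches on either strand. No 2 of the matched motifs overlapped in the printed stretches, and a match is a description of letters.

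Sln encodes sarcolipin, an inhibitor of the SERCA pump that is typical of the atria. Its single probe set, 1374391_at, read 8.48, 8.42 and 10.07 in the nonpulsed arrays of series 1, 2 and 3. The pulsed arrays of series 1 to 4 read 8.56, 8.55, 10.22 and 7.94, and the blebbistatin arrays of series 2, 3 and 4 read 8.52, 10.27 and 8.26. The gene thus followed the culture series and not the treatment. Series 3 lay between 10.07 and 10.27, series 1 and 2 between 8.42 and 8.56, and series 4 between 7.94 and 8.26, with no overlap between these ranges.

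Culture series accounted for 98.8% of the variance of Sln over the 10 arrays, against a median of 51.5% for all tested probe sets, and 0.0558% of probe sets had a share as high. Within series the differences on pulsing were small, between 0.08 and 0.15, and positive in 3 of 3 series. The fitted change was 0.08 (SE 0.10, 95% interval -0.15 to 0.31). In a fit without the block it was -0.17, since the groups hold different series. With blebbistatin the change was 0.12 (SE 0.10) against pulsed and 0.20 (SE 0.11) against nonpulsed cultures.

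Of the 5 other measured atrial markers, Myl7 and Myl4 were also highest on the arrays of series 3, while Nppa, Pam and Kcnj3 overlapped with other series. The mean of Nppa was highest in series 3 (13.63), but that of Kcnj3 in series 4 (7.26, against 7.17 in series 3). Pam had series means between 12.60 and 12.61. Myl7, the atrial regulatory myosin light chain, read 11.07 to 11.72 in series 3 and at most 10.88 elsewhere. Myl4, the atrial essential light chain, read 10.97 to 11.14 in series 3 and at most 10.89 elsewhere. The sum of the 5 measured atrial markers other than Sln was 14.53 to 14.54 log2 units in series 3, above the 14.01 to 14.46 of all other arrays. Nppa and Pam (mean log2 13.44 and 12.60) weigh most in this sum, and Nppa is also on the cardiomyocyte list. None of the 5 markers was at the lowest level on any array, and their part in the level of Sln was not tested.

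**Figure D3:**
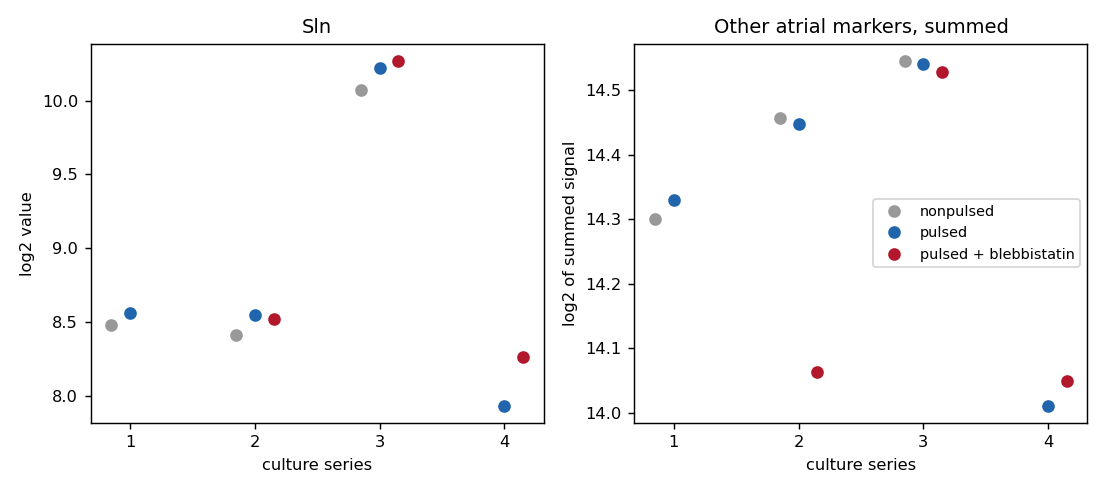
Left, log2 value of Sln by culture series, with 1 point per array coloured by group. Right, log2 of the summed linear signal of the 5 other atrial markers on the same arrays. Series 3 is the highest in both panels, with Sln at 10.07 to 10.27, and series 4 holds the lowest Sln values (7.94 and 8.26).

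Slc8a1 encodes the cardiac sodium-calcium exchanger. Probe set 1372449_at read 11.40, 11.78 and 11.83 in nonpulsed, 11.89, 12.03, 11.84 and 11.57 in pulsed and 11.85, 11.89 and 11.70 in blebbistatin arrays. Within series 1, 2 and 3 pulsing differed from no pulsing by 0.48, 0.25 and 0.0072, so that the arrays of series 3 were level. The change was 0.22 (SE 0.12, limma adjusted p 0.61) on pulsing and -0.04 (SE 0.12) for blebbistatin against pulsed cultures. The second probe set, 1370588_a_at, had changes of 0.09 (SE 0.19) and -0.03 (SE 0.19), with overlapping groups. The series means of Slc8a1 were lowest in series 1 and 4, at 11.64 and 11.63, and highest in series 2, at 11.89. These means mix groups. That of series 1 joins a nonpulsed array at 11.40 and a pulsed array at 11.89, and series 4 had no nonpulsed array.

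Atp2b1 and Atp2b4 encode plasma membrane calcium pumps, which many cell types carry. Atp2b1 had small fitted changes. Its brightest probe set, 1370050_at, read 9.25, 9.40 and 9.79 in nonpulsed, 9.27, 9.34, 9.56 and 9.48 in pulsed and 9.61, 9.65 and 9.33 in blebbistatin arrays. The changes were -0.06, 0.06 and 0.0003 in the 3 comparisons (SE 0.11 to 0.13), and the last was negative with quantile normalization (-0.05) and median centring (-0.08). The interval of the change on pulsing was -0.32 to 0.21.

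The other 2 probe sets of Atp2b1 had changes between -0.07 and 0.18, and the smallest limma adjusted p of the gene was 0.73. At 1397224_at series went opposite ways. Blebbistatin differed from nonpulsed arrays by 1.0 in series 2 and by -0.42 in series 3, with a fitted change of 0.18 (SE 0.27). Probe set 1386426_at tracked the culture series, with 8.04 to 8.29 in series 2 and 8.67 to 8.73 in series 3 whatever the treatment. Series accounted for 88.2% of its variance, and for 73.2% of that of 1370050_at.

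Atp2b4 was the only member whose blebbistatin arrays lay below all other arrays. It had a single and rather dim probe set, 1370602_at, at the 34.2nd percentile of all signals. This read 6.48, 5.78 and 5.76 in nonpulsed and 5.92, 5.92, 5.65 and 5.76 in pulsed arrays. The blebbistatin arrays read 5.19, 5.13 and 5.21 in series 2, 3 and 4. They were close together and lay below every other array, while nonpulsed and pulsed arrays overlapped. The change against pulsed cultures was -0.54 (SE 0.13, 95% interval -0.84 to -0.23, limma adjusted p 0.27), and the differences in the 3 shared series spanned -0.73 to -0.52.

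Against nonpulsed cultures the change of Atp2b4 was -0.71 (SE 0.15, limma adjusted p 0.081), with -0.59 and -0.63 in series 2 and 3. It passed with culture series as a random block (adjusted p 0.029), and over the alternatives its adjusted p ranged from 0.029 to 0.32. Its arrays were the only member arrays to lie lower without overlap, which is 5.56% of 18 probe sets in both blebbistatin comparisons. Among all probe sets 3.67% were lower in this way against pulsed and 6.9% against nonpulsed cultures, so 1 in 18 is near the background. On pulsing alone the change was -0.17 (SE 0.13), and 0.0041 without series 1.

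Levels of genes listed as markers of other cells are given beside these values. A listed gene need not be exclusive to its cell type. The brightest genes of the smooth muscle and pericyte list were Acta2, Tagln and Des (mean log2 12.62, 12.16 and 12.07), followed by Mylk (9.89), so the former weigh most in its sum. The summed level of 11 smooth muscle and pericyte markers was 14.21 to 14.80 in nonpulsed, 14.35 to 14.52 in pulsed and 13.72 to 13.96 in blebbistatin arrays, with 11 of 11 changes negative against pulsed cultures (median -0.36), a comparison in which 55.5% of all probe sets had a positive change. The blebbistatin arrays thus lay below all others for this list, while the groups overlapped for the next 3. For fibroblast markers the sums were 15.26 to 15.91, 15.13 to 15.91 and 14.92 to 15.66, with 8 of 10 changes negative (median -0.27). For macrophage and leukocyte markers they were 10.82 to 12.56, 10.68 to 12.30 and 10.55 to 11.55, with 8 of 9 changes negative (median -0.23). For endothelial markers they were 9.67 to 10.13, 9.87 to 10.44 and 9.87 to 10.34, with 5 of 6 negative (median -0.16). All these counts are against pulsed cultures. In all these lists 0 markers passed the adjusted test. The part of such cells in the values of Atp2b4 was not tested.

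S100a1 encodes a calcium-binding protein that raises the activity of the SERCA pump and of the release channel. Its probe set 1388456_at read 6.99, 8.09 and 7.85 in nonpulsed, 8.44, 8.58, 7.72 and 7.72 in pulsed and 8.30, 8.12 and 8.48 in blebbistatin arrays. The pulsed arrays formed a high pair (series 1 and 2) and a low pair (series 3 and 4). The change on pulsing was 0.50 (SE 0.30, limma adjusted p 0.64), and it rested on series 1. In that series the difference was 1.46, against 0.50 and -0.13 in series 2 and 3, and the fit without series 1 gave 0.07. Against nonpulsed cultures the blebbistatin arrays did not overlap, with a fitted change of 0.63 (SE 0.34, limma adjusted p 0.30). In series 2 and 3, the only ones with both groups, the difference was 0.21 and 0.26. The fitted change was 0.24 with only the groups compared and 0.35 without series 1.

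Camk2d encodes the delta form of calmodulin kinase II, which phosphorylates phospholamban and the release channel. Probe set 1368834_at read 10.73, 11.01 and 10.94 in nonpulsed, 10.999, 11.31, 10.91 and 10.95 in pulsed and 11.07, 11.19 and 11.27 in blebbistatin arrays. The blebbistatin arrays were above all nonpulsed arrays, with a change of 0.25 (SE 0.14, limma adjusted p 0.34) and differences of 0.07 and 0.26 in series 2 and 3. Series 2 went down from pulsed to blebbistatin (-0.23), where series 3 and 4 went up (0.28 and 0.32). On pulsing the change was 0.14 (SE 0.13). The other 2 probe sets had changes of 0.06 (SE 0.17) and 0.21 (SE 0.10) on pulsing, and the first was negative with median centring (-0.01) and quantile normalization (-0.0033). Their changes with blebbistatin against pulsing alone were 0.17 and -0.02.

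**Figure D4:**
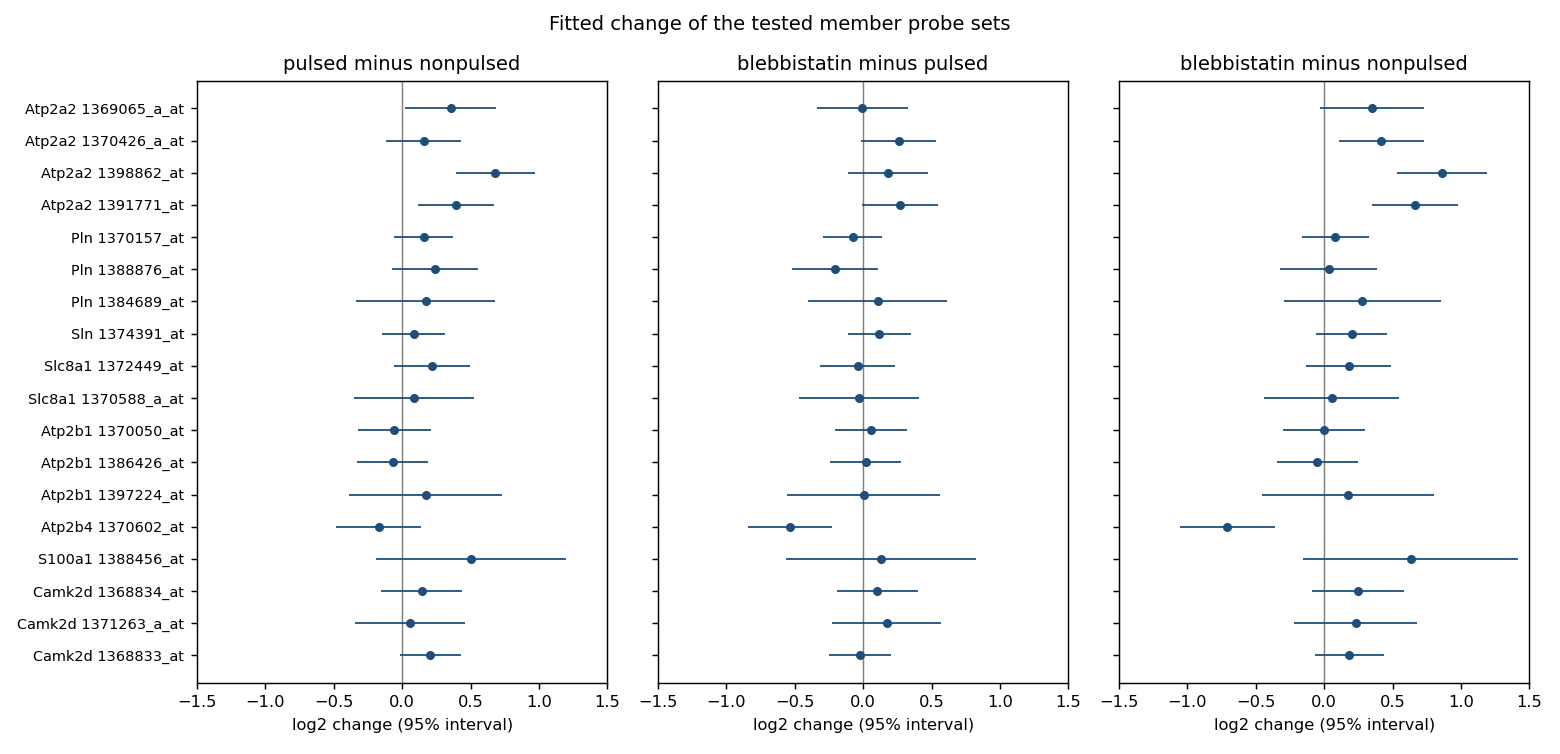
Fitted log2 change (horizontal axis) of the 18 tested probe sets of the 8 genes in the 3 comparisons, with 95% intervals from limma. The intervals of Atp2a2 at 1398862_at (0.39 to 0.97), 1391771_at (0.12 to 0.67) and 1369065_a_at (0.02 to 0.69) lie above 0 on pulsing. That of Atp2b4 (-0.84 to -0.23) lies below 0 for blebbistatin against pulsed cultures. Against nonpulsed cultures, those of Atp2a2 at 1398862_at (0.54 to 1.19), 1391771_at (0.35 to 0.98) and 1370426_a_at (0.11 to 0.73) lie above 0 and that of Atp2b4 (-1.05 to -0.36) below.

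In the comparison of blebbistatin with nonpulsed cultures, 7 member probe sets were higher without overlap, or 38.9% of 18, against 17.6% of all probe sets. These were the 4 of Atp2a2 and 1 each of Pln (1384689_at), S100a1 and Camk2d (1368834_at). Within series 2 and 3 that probe set of Pln differed by 0.02 in each. Positive changes were found for 15, 11 and 16 of the 18 in the 3 comparisons, against 61.1%, 55.5% and 61% of all probe sets. With median centring these counts were 14, 10 and 12. The median change of all probe sets was then -0.03, 0.01 and -0.01, so the shares above are not the background for these counts. Probe sets of a gene share its RNA, so 18 probe sets are fewer than 18 separate observations.

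Part of the genes varied alike within culture series. As deviations from the series mean over 10 arrays, the brightest probe set of Atp2a2 correlated at 0.91 with Pln, 0.93 with Slc8a1 and 0.91 with S100a1, at 0.06 with Atp2b1 and at -0.61 with Atp2b4. Pln and Slc8a1 correlated at 0.94, and S100a1 with Slc8a1 at 0.96. The 10 pairs among Atp2a2, Pln, Slc8a1, S100a1 and Camk2d lay between 0.57 and 0.96, while 12 of all 28 pairs were negative, each of them with Atp2b1 or Atp2b4. These arrays share culture series and the low nonpulsed array of series 1, and the values are given as a description. Among 11845 other genes, those most like Atp2a2 by this measure were Gja1, the gap junction protein of ventricular muscle (0.996), Slc25a3, the mitochondrial phosphate carrier (0.991), and Esrrg, an orphan nuclear receptor (0.991). Those most like Pln were Irx5, Entrep1 and Gata6 (0.978 to 0.982), those most like Slc8a1 were Usp3, Foxo4 and Mtus1 (0.986 to 0.996), and those most like S100a1 were Gucd1, Slc25a13 and Klhl8 (0.995 to 0.997). For Sln they were Med24, B4gat1 and Aldh1l1 (0.956 to 0.978), for Atp2b1 Mfsd11, Sppl2b and Agfg1 (0.956 to 0.992), for Atp2b4 Sec11a, Gnb2 and Stk38l (0.983 to 0.991), and for Camk2d Tafazzin, Metap1 and Spag7 (0.974 to 0.989). With series means left in, some of these likenesses were lost. Sln then correlated at 0.01 with Med24 and at -0.76 with Aldh1l1, and Atp2b1 at -0.06 with Mfsd11. Others stayed high, as for Atp2a2 with Gja1 (0.98) and Atp2b4 with Sec11a (0.95).

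The wider calcium system was covered by 9 lists with 108 genes, of which 89 were tested at their brightest probe set. In each comparison 0 of the 89 passed the adjusted test. At an unadjusted p under 0.05, 10 were higher and 2 lower on pulsing, 2 and 8 with blebbistatin against pulsed, and 12 and 12 with blebbistatin against nonpulsed cultures. For all probe sets the shares were 7.71% higher and 1.36% lower, 6.09% and 5.51%, and 15.5% and 6.89%. The median change of the 89 was 0.03, 0.0063 and 0.07.

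Relatives of the pumps and the exchanger showed little on pulsing, with 4 of 8 tested genes positive and a median of 0.0082. Of these Slc24a3, a potassium-dependent sodium-calcium exchanger, had the largest change, at -0.51 (SE 0.29). Genes of the calcium store and its release had 9 of 18 positive, against 61.1% of all probe sets. Hrc, which binds calcium inside the store, was at 0.73 (SE 0.23). In the list of voltage-gated entry Cacna1g, a T-type channel, had 0.70 (SE 0.24) on pulsing and -1.02 (SE 0.24) for blebbistatin against pulsed cultures. Stim1, a calcium sensor of the store, had 0.44 (SE 0.10) on pulsing and was positive in 3 of 3 series. Casq1, the skeletal muscle form of the store protein calsequestrin, had the largest change with blebbistatin, at -2.0 (SE 0.51) against pulsed and -2.47 (SE 0.57) against nonpulsed cultures.

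A list on regulation of the pump by phosphorylation, which holds protein kinase A, phosphatase, calcineurin and phosphodiesterase genes and the anchor Akap6, had 14 of 19 positive on pulsing, with a median of 0.09, and Rcan2, a regulator of calcineurin, at 0.54 (SE 0.25). Of calmodulin and its kinases 4 of 6 were positive on pulsing, Camk2a at 0.59 (SE 0.19), and Calm2, a calmodulin gene, was at -0.29 (SE 0.11) with blebbistatin against pulsed cultures. Mitochondrial uptake genes had 7 of 10 positive on pulsing, while Mcu, the pore of the mitochondrial uniporter, was at -0.39 (SE 0.17). Sodium handling was covered by 2 tested genes, of which Atp1b1, a subunit of the sodium pump, was at 0.09 (SE 0.11). None of these genes passed the adjusted test. On pulsing 61.1% of all probe sets had a positive change, so 4 of 6 and 7 of 10 were near that share.

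Most relatives of S100a1 had changes of the opposite sign. Of 8 tested S100 genes, 6 were negative on pulsing (median -0.12), 6 with blebbistatin against pulsed (median -0.29) and 7 with blebbistatin against nonpulsed cultures (median -0.37), where S100a1 was at 0.63 in the fit and at 0.21 and 0.26 within series 2 and 3. In the last comparison 5 of 8 had an unadjusted p under 0.05 and were lower, against 6.89% of all probe sets. S100a11 had a change of -0.44 (SE 0.12, limma adjusted p 0.30) with blebbistatin against pulsed cultures, and S100a5 of -0.63 (SE 0.14, limma adjusted p 0.086) against nonpulsed cultures. The part of smooth muscle, fibroblast and macrophage cells, whose summed markers are given above, was not tested.

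**Figure D5:**
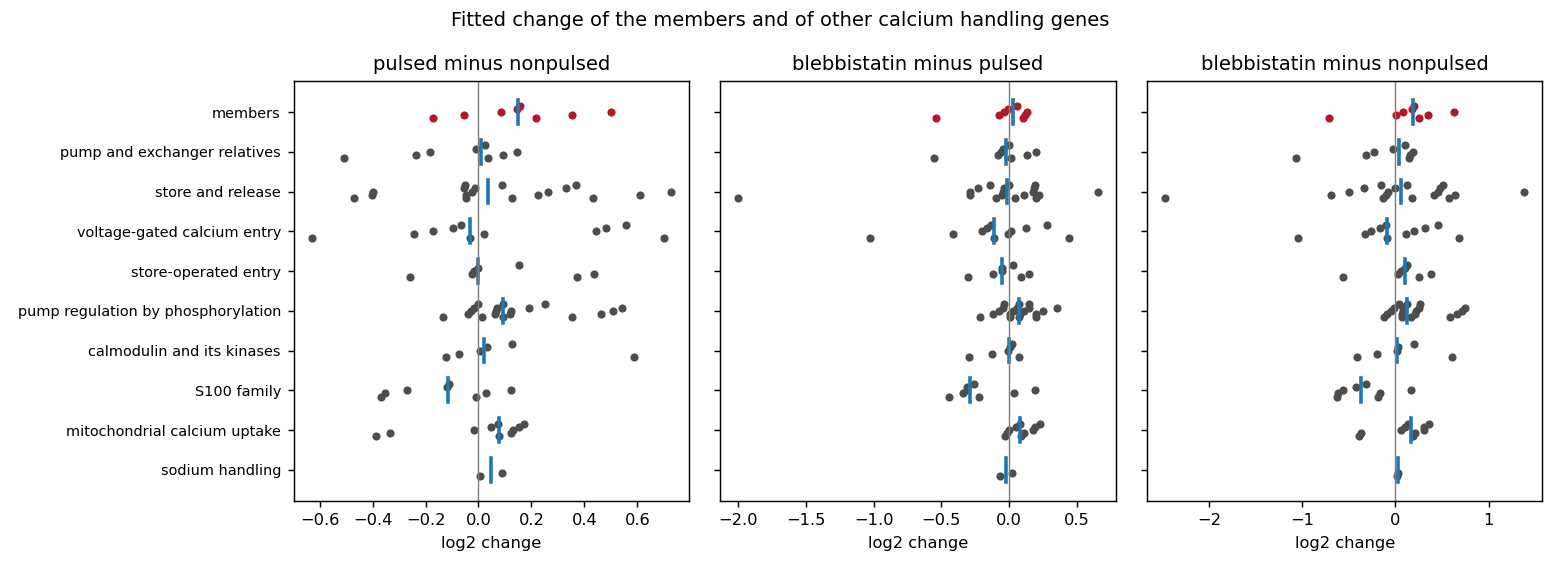
Fitted log2 change (horizontal axis) of the 8 member genes at their brightest probe set (red) and of the tested genes of 9 other calcium handling lists (grey) in the 3 comparisons, 1 point per gene, with a blue bar at each median. The S100 family has its median at -0.12, -0.29 and -0.37, and the isolated point near -2.0 in the middle panel is Casq1.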

How the data were processed

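RNA came from a Trizol extraction, per the labels' protocols. The authors deposited log2 values, 1 per probe set and array. The submitters' processing notes name PLIER and the Affymetrix Expression Console 1.1. Neither their settings nor the base of the logarithm is stated there, and base 2 is a reading of the values, whose floor is then 10.0 to 10.97 on a linear scale. No further scaling was applied. Of 31099 probe sets, 57 controls and the dimmest 25% by mean over all arrays (below 5.09) were left out, and 23281 were tested each on its own. A platform annotation gave 20826 of the remaining probe sets 1 symbol, 436 several and 9780 none.

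Groups came from the titles, which also give the culture series, numbered 1 to 4. All 4 pulsed arrays in the labels were used, although the design text counts 3 for each treatment. Replicates are separate culture series. Deviations from the group means correlated at 0.35 to 0.63 between arrays of a series (8 pairs) and at -0.58 to 0.50 between series (25 pairs, median -0.26). Series therefore entered as a fixed block in limma 3.58.1 (R 4.3.3; lmFit, eBayes, two-sided, Benjamini-Hochberg over all probe sets, threshold 0.05). Means are given with SD, changes with SE. The number of arrays limits precision. On simulated data with a log2 change of 1 the procedure recovered 69%, 76.5% and 66.5% of 200 changed probe sets in the 3 comparisons. Noise was drawn separately for each probe set. The largest member change was 0.86, and no change below 1 was simulated, so recovery at the sizes seen here is not known.

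Members and lists were chosen with earlier results of these data known. Genes named beyond the members were, per list, those with the largest change where none passed, of which a part is given, and the 3 genes most like each member. Alternatives covered the block (random block with statmod 1.5.0), scaling, filters, the prior, 1 probe set per gene, and leaving out each array or series.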

Additional observations from a re-analysis of the deposited data

Results flagged for a closer look

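A single value was set apart by Dixon's test for outliers, which was run on the 4 pulsed arrays for each member probe set and for the difference between Atp2a2 and Pln. At the dim probe set 1375164_at of Atp2a2, which did not pass the filter, the pulsed array of series 1 read 3.605 log2 units and the other 3 pulsed arrays 4.10 to 4.19. The gap was 0.83 of the group's range, just above the critical value at the 95% level, which some groups of this size pass by chance. Groups of 3 arrays were not examined.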

How the results depend on the processing

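Among the members, the changes of Atp2a2 on pulsing and with blebbistatin against nonpulsed cultures and those of Atp2b4 with blebbistatin kept their sign under every alternative run. This was not particular to them. On pulsing, Pln 1370157_at (0.086 to 0.21), Slc8a1 1372449_at (0.096 to 0.32) and S100a1 (0.065 to 0.81) kept theirs too, as did S100a1 against nonpulsed cultures (0.24 to 0.95) and further probe sets. Without the replicate block Sln changed by -0.17 and Atp2b1 1386426_at by 0.019 on pulsing, Atp2a2 1369065_a_at by 0.058 with blebbistatin against pulsed and Atp2b1 1386426_at by 0.054 against nonpulsed cultures, and 5 and 46 of all probe sets passed in these 2 comparisons, with 1 pathway gene in the last. With the random replicate block the changes were -0.027, 0.024 and 0.0009 for Sln, Atp2a2 1369065_a_at and Atp2b1 1386426_at, and 14 and 1212 of all probe sets, 3 member probe sets and 6 pathway genes passed. Quantile normalization gave -0.0033 (Camk2d 1371263_a_at, pulsing), 0.072, -0.012 and -0.0031 (Atp2a2 1369065_a_at, Atp2b1 1386426_at and 1397224_at, blebbistatin against pulsed), -0.033 and -0.052 (Slc8a1 1370588_a_at and Atp2b1 1370050_at, blebbistatin against nonpulsed) and 67 passing probe sets in the last. Median centring gave -0.013 and -0.0078 (Camk2d 1371263_a_at and Atp2b1 1397224_at) and, against nonpulsed cultures, -0.0024, -0.0502, -0.028 and -0.083 (Pln 1370157_at and 1388876_at, Slc8a1 1370588_a_at, Atp2b1 1370050_at). With only the groups compared the values were 0.072, 0.0055, 0.034 and -0.019 (Atp2a2 1369065_a_at, Slc8a1 1372449_at and 1370588_a_at, Atp2b1 1397224_at) against pulsed and -0.11, -0.11 and 0.017 (Pln 1388876_at, Slc8a1 1370588_a_at, Atp2b1 1386426_at) against nonpulsed cultures, with 12 and 2 passing probe sets. Passing probe sets in the 2 blebbistatin comparisons, 3 and 110 as reported, were 0 and 1 with no filter, 6 and 70 without the dimmest 50%, 10 and 216 with a trended prior (1 member and 1 pathway gene in the last) and 63 in the last with 1 probe set per gene. Leaving out an array or a series gave 0 to 48 and 0 to 69. The Atp2a2 to Pln steps were 0.20 and 0.56 with the mean of all probe sets. The cause of these shifts was not tested. Leaving out an array or series turned the sign of the following changes. On pulsing the ranges were -0.14 to 0.42 (Pln 1384689_at), -0.095 to 0.23 (Slc8a1 1370588_a_at), -0.11 to 0.035, -0.11 to 0.013 and -0.17 to 0.46 (Atp2b1 1370050_at, 1386426_at and 1397224_at), -0.31 to 0.0041 (Atp2b4) and -0.12 to 0.21 (Camk2d 1371263_a_at). Against pulsed cultures they were -0.088 to 0.072 (Atp2a2 1369065_a_at), -0.055 to 0.25 (Pln 1384689_at), -0.12 to 0.0305 and -0.20 to 0.21 (Slc8a1 1372449_at and 1370588_a_at), -0.058 to 0.15, -0.079 to 0.14 and -0.33 to 0.20 (Atp2b1), -0.16 to 0.36 (S100a1) and -0.057 to 0.036 (Camk2d 1368833_at). Against nonpulsed cultures they were -0.056 to 0.20 (Pln 1388876_at), -0.089 to 0.33 (Slc8a1 1370588_a_at) and -0.14 to 0.10, -0.14 to 0.029 and -0.37 to 0.57 (Atp2b1). Signal over background limits the dim probe sets, whose differences can be understated near the lowest level, as can those of the brightest probe sets near the top of the scale.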
